A study of Mus musculus with 16 samples.

Results

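The cardiac myosin light chains and the kinases that phosphorylate them were followed across atria and ventricles of the adult mouse heart, in controls and in mice made to lose Meis1 and Meis2 in cardiomyocytes. The set holds 6 genes chosen by name, Myl2, Myl7, Myl3, Myl4, Mylk3 and Mylk4, out of 16118 genes in the deposited table. All 6 passed the filter on low values in every comparison. RNA was taken from 8 adult male littermates, 4 controls and 4 idKO mice, 2 weeks after tamoxifen, and atrium and ventricle were sequenced separately, which gave 16 libraries in 4 groups of 4. Every mouse, control or idKO, was homozygous for floxed alleles of Meis1 (Meis1flox/flox) and of Meis2 (Meis2flox/flox). The idKO mice were also α-MHC-MerCreMer tg/wt, a transgene that expresses a tamoxifen-activated Cre recombinase from a cardiomyocyte promoter, and the controls were α-MHC-MerCreMer wt/wt. The transgene, activated Cre and any deletion come together in idKO mice, and their effects cannot be told apart. The promoter acts in cardiomyocytes, so the other cells of the tissue keep their Meis alleles. Outflow tracts had been removed and the hearts flushed of blood.

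Myosin of heart muscle carries an essential and a regulatory light chain on the lever arm of each heavy chain. The essential chain stiffens the lever arm, and the regulatory chain sits next to the rod and is phosphorylated at N-terminal serines by calcium- and calmodulin-dependent light chain kinases, which raises the force of contraction. Atria and ventricles use different genes for each chain. Myl7 and Myl4 encode the atrial regulatory and essential chains, and Myl2 and Myl3 encode the ventricular ones. Mylk3 encodes cardiac myosin light chain kinase, the main kinase of the ventricular regulatory chain, and Mylk4 encodes a further muscle kinase of the same family.

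The acceptor serines are where kinases and regulatory chains meet, so the coding stretch around them is shown for Myl2 and Myl7, read from the GENCODE M21 transcripts on GRCm38. Capitals mark the paired serine codons, which are codons 14 and 15 of Myl2 and codons 22 and 23 of Myl7, with the start codon counted as 1.
Myl2: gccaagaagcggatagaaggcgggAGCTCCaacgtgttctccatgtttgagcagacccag
Myl7: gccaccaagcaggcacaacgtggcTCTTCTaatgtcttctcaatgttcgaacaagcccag
Both isoforms keep the serine pair, with different codons. Over their aligned coding sequences Myl2 and Myl7 shared 64.9% of bases, and their translated proteins shared 60.2% of residues. The essential pair, Myl3 and Myl4, was closer, at 78.1% of bases and 78.2% of residues, and Mylk3 and Mylk4 shared 75.4% of aligned bases. At the read length of 60 bases, no window of a Myl7, Myl4 or Mylk3 transcript also lay in a transcript of another gene. Shared windows made up 0.381% of Myl2, 1.97% of Myl3 and 0.196% of Mylk4, and none of their partners was another of the 6 genes, so reads of one isoform could not be assigned to the other as identical sequence.

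Genotype labels were checked on the targeted genes. In ventricles Meis2 was 26.8 ± 4.25 (SD, n = 4) in controls and 8.82 ± 0.848 (n = 4) in idKO mice, a log2 difference of -1.49 ± 0.12 (SE, limma adjusted p = 1.96e-05). Meis1 was 27.3 ± 0.767 and 23.1 ± 2.29, which did not pass (limma adjusted p = 0.236). In atria Meis2 was 19.96 ± 1.48 in controls and 17.7 ± 1.64 in idKO mice (limma adjusted p = 0.966), and Meis1 was 28.3 ± 2.86 and 29.7 ± 2.76 (limma adjusted p = 0.986). A fall in Meis RNA thus passed the test for Meis2 in ventricles and in none of the other 3 comparisons. Counts over a whole gene also take reads outside a deleted exon, so they check the deletion only in part. Esr1, whose ligand-binding part flanks Cre in MerCreMer constructs, was 3099 ± 574 in idKO ventricles and 186 ± 95.5 in idKO atria against 0.967 ± 0.632 and 5.02 ± 0.895 in the controls, so the library labels and the transgene matched in all 16 libraries. Libraries held 13117739 to 21771518 recovered reads. Values are reads per 1000000 of the authors' effective library size, which averaged 0.947 of the reads for control and 0.958 for idKO atria, but 0.639 for control and 0.687 for idKO ventricles. A chamber difference therefore depends on that scaling, and values as a share of all reads are given where the choice changes a call. Summed cardiomyocyte markers were 51750 to 63386 over the 8 atria, and in ventricles 75844 to 81849 for controls and 68693 to 78786 for idKO mice. All 5 atrial chamber markers and all 5 ventricular chamber markers were in the table. Their sums followed the chamber labels, and the ventricular sum was 1288 to 1723 in idKO ventricles against 3059 to 3373 in control ventricles.

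Chambers were separated by all 4 light chains in both genotypes, and in controls also by Mylk4. Among control mice 5 of the 6 genes passed the test (limma, adjusted p under 0.05), where 56.9% of the 14871 genes tested passed. Of these, 2 were higher in atrium, as 28.2% of all genes were, and 3 were higher in ventricle, as 28.7% were. Among idKO mice 4 of 6 passed against 53.8% of all genes, 2 in each direction, against 26.8% higher in atrium and 27.1% higher in ventricle. With so many genes different between chambers, these counts say little. By size on the log2(value + 1) scale, 16 of the 14871 genes (0.108%) differed between control chambers by at least as much as Myl3. The 4 light chains were among them, and Myl3 was the light chain that differed least. In idKO mice 16 genes did as well. This scale holds low genes back, so the share depends on level too. Irx4, at 0.0761 in control atria and 38.7 in control ventricles, differed 509-fold by its means, against 75.3-fold for Myl3. Its log2 difference was only -5.21, against -6.22 for Myl3. In RNA from whole tissue, fewer cells of a type and less RNA per cell cannot be told apart.

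Myl7, the atrial regulatory chain (chr11:5896637-5898782, minus strand, GRCm38), was 4544, 5589, 5181 and 4992 in the control atria of replicates 1 to 4 and 4900.4, 4766, 4526 and 5352 in the idKO atria. In ventricles it was 13.9, 4.98, 13.7 and 12.3 in controls and 14.4, 9.53, 8.29 and 5.13 in idKO mice. Every atrial value exceeded every ventricular value, and within each chamber the genotypes overlapped. The chamber difference was 8.78 ± 0.25 on the log2(value + 1) scale in controls (SE, limma adjusted p = 1.89e-15) and 8.96 ± 0.25 in idKO mice (limma adjusted p = 1.55e-15). The idKO minus control difference was -0.05 ± 0.094 in atria, with a 95% interval from -0.26 to 0.15 (limma adjusted p = 0.988). In ventricles it was -0.23 ± 0.30, with an interval from -0.88 to 0.42 (limma adjusted p = 0.780).

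Myl2, the ventricular regulatory chain (chr5:122100951-122113472, plus strand), was 8341, 8177, 8857 and 8208 in control ventricles and 6769, 6818, 7329 and 7813 in idKO ventricles. The highest idKO value lay below the lowest control value. The fitted difference was -0.23 ± 0.073 (SE), with a 95% interval from -0.38 to -0.07, but it did not pass over all genes (limma adjusted p = 0.152). DESeq2 on the recovered reads gave -0.21 with an adjusted p of 0.0193, and this was the only alternative of 17 that called it. In atria Myl2 was 29.0, 22.0, 3.28 and 1.46 in controls and 77.0, 42.8, 111 and 3.54 in idKO mice, from 25 to 2034 reads per library. The groups overlapped, and the values within a group spanned more than an order of magnitude. The fitted idKO minus control difference in atria was 1.98 ± 0.98, with an interval from -0.15 to 4.10 (limma adjusted p = 0.966). Leaving out libraries or changing settings moved it between 1.34 and 2.98 without a call. The chamber difference was -9.83 ± 0.79 in controls (limma adjusted p = 3.48e-09) and -7.63 ± 0.79 in idKO mice (limma adjusted p = 1.25e-07). These chamber differences did not pass a test of the difference between genotypes (2.20 ± 1.11, limma adjusted p = 0.788).

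Myl4, the atrial essential chain (chr11:104550663-104595753, plus strand), was 5875, 7273, 7123 and 6119 in control atria and 6058, 5922, 6479 and 7028 in idKO atria. Ventricular values were 15.6, 11.5, 21.6 and 16.6 in controls and 24.7, 15.8, 14.9 and 9.82 in idKO mice. The genotypes overlapped in both chambers, and the chambers did not overlap in either genotype. Myl4 was higher in atria by 8.60 ± 0.19 on the log2(value + 1) scale in controls (SE, limma adjusted p = 6.49e-17) and by 8.59 ± 0.19 in idKO mice (limma adjusted p = 7.57e-17). Its genotype difference was -0.05 ± 0.11 in atria (interval -0.28 to 0.18) and -0.04 ± 0.23 in ventricles (interval -0.53 to 0.45), with limma adjusted p of 0.992 and 0.967.

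Myl3, the ventricular essential chain (chr9:110741861-110769798, plus strand), was 6961, 7441, 7849.7 and 7188 in control ventricles and 7298, 7089, 7979 and 7815 in idKO ventricles. These overlapped, and the genotype difference was 0.04 ± 0.072 with an interval from -0.12 to 0.19 (limma adjusted p = 0.876). In atria Myl3 was 95, 91.5, 103 and 102 in controls. The idKO atria, at 140, 104, 175 and 79.5, reached above and below them (difference 0.29 ± 0.18, limma adjusted p = 0.966). The chamber difference was -6.22 ± 0.15 in controls (limma adjusted p = 2.42e-16) and -5.97 ± 0.15 in idKO mice (limma adjusted p = 3.99e-16). Atrial Myl3 was 1.23% to 1.42% of the same animal's ventricular level in controls and 1.02% to 2.19% in idKO mice, while atrial Myl2 was 0.0178% to 0.347% and 0.0453% to 1.52%. Pth1r, on the opposite strand within the Myl3 locus, had group means of only 4.68 to 7.57.

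**Figure D1:**
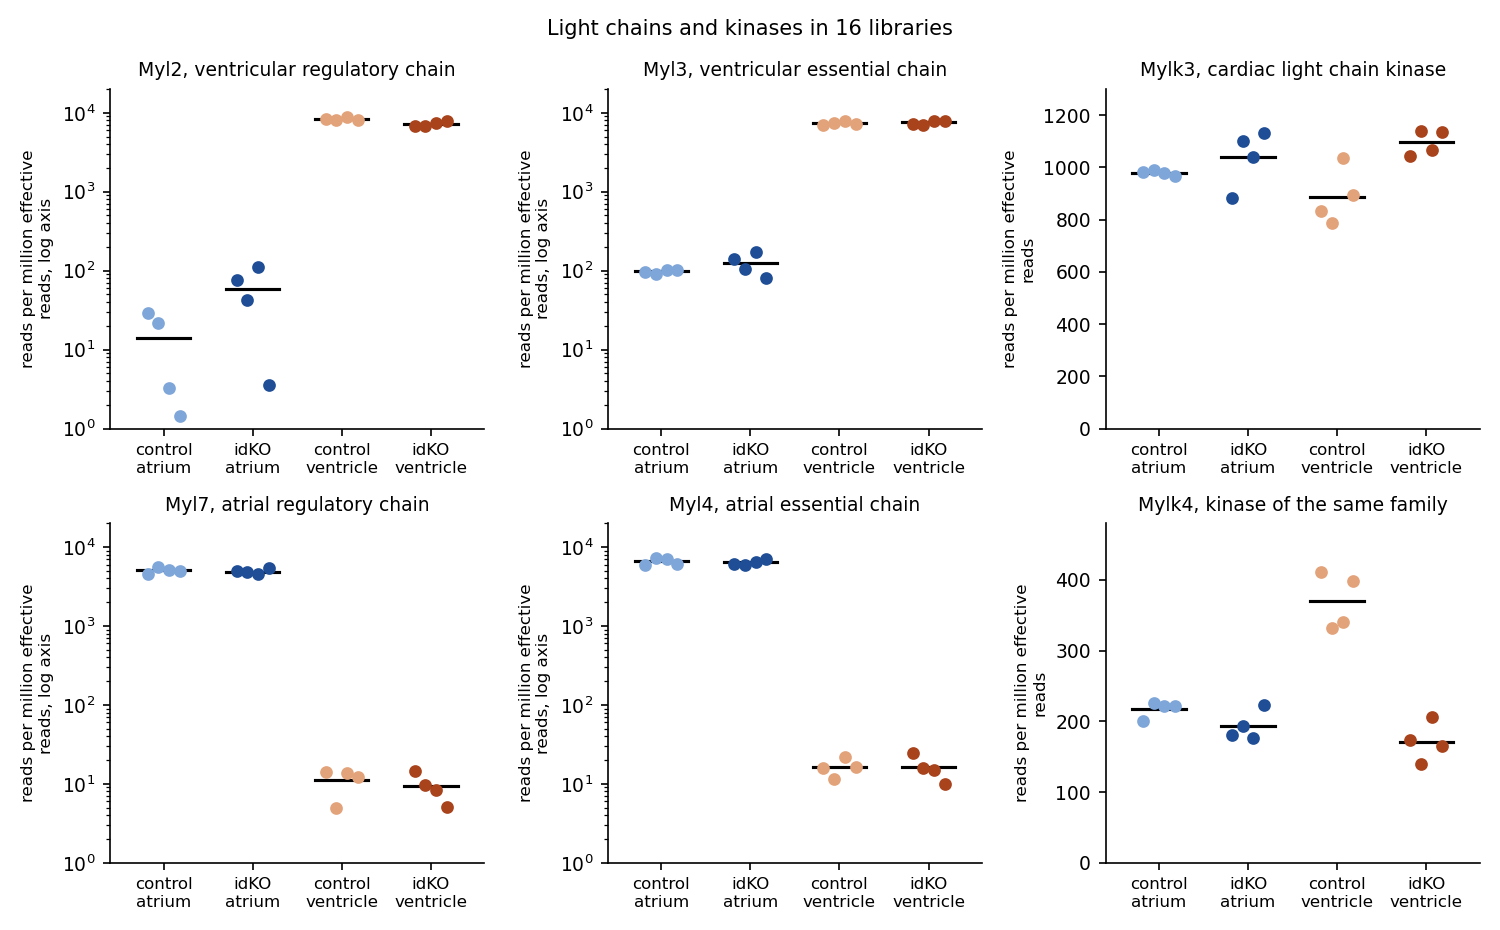
Values of the 6 genes (reads per 1000000 of effective library size) in each of the 16 libraries, as points by group, with the group mean as a black line; the light chain panels have log axes and the kinase panels linear axes from 0. Each light chain lay at 4526 or above in its own chamber and at 175 or below in the other, and Mylk4 was 331 to 412 in control ventricles and at 226 or below in every other library.

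RefSeq upstream windows are shown for 1 light chain of each chamber, Myl7 and Myl3, since the chains of a chamber differed together. All 6 genes matched the RefSeq table by symbol. The Myl2 entries lay 7762 and 8227 bases from its GENCODE start and were not used. Capitals mark a CArG box, the site class of serum response factor, written CC, then 6 bases that are each A or T, then GG. On GRCm38.p6 the Myl7 window is chr11:5898783-5899032 on the minus strand. The Myl3 window is chr9:110763428-110763645 on the plus strand and stops at the GENCODE start, 32 bases short of the RefSeq start.
Myl7: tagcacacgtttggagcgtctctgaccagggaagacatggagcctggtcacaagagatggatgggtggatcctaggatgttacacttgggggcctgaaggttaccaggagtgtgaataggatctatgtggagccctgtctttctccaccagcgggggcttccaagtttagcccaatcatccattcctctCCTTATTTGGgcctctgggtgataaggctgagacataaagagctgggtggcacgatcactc
Myl3: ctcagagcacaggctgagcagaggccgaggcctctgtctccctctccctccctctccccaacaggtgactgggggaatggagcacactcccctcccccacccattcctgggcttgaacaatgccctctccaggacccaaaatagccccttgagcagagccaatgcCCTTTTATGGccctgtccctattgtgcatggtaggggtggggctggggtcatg
Counted from the RefSeq start, the match lies 61 to 52 bases upstream in Myl7 and 85 to 76 bases upstream in Myl3. In Myl3 that start lies 32 bases beyond the printed end. Of 32851 RefSeq windows of 250 bases, 1.47% held a CArG match. Neither window held a MEF2 match (CTA, 4 bases of A or T, TAG, in 0.508% of windows), the GATA letters AGATAA (9.99%) or the MEIS core TGACAG (15.9%), searched on both strands. The Myl4 window held none of the 4. A match is a description of the letters and not a measured binding site.

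Isoforms of the other chamber were present at low levels that differed between animals. Among atria, the 3 with the most Myl2 were idKO replicates 3, 1 and 2, and the same 3 had the most Myl3. Myh7b, Acta1 and Ogdhl were also highest in idKO atrium 3, as were Myl2 and Myl3. These 3 and a further 2, Lrtm1 and Tesc, were found after the values were seen, as the genes besides Myl2 and Myl3 with a ventricular median over 100 and an atrial median under 4% of it. In idKO atrium 3 Acta1, the skeletal muscle actin gene, was 96.4, against at most 11.8 in the other 7 atria. Myh7b was 2.16 there against at most 1.21, whereas Lrtm1 and Tesc were highest in control atrium 2, at 18.6 and 7.38. Of the 5 ventricular chamber markers (Irx4, Mpped2, Lbh, Kcnip2 and Fhl2), Irx4 and Mpped2 were near 0 in atria and highest in the same 3 idKO atria. Irx4, a ventricular transcription factor, had 4, 7 and 10 reads in idKO atria 1, 2 and 3 and 2 in idKO atrium 4, against 0, 0, 0 and 3 in the controls. Mpped2 was 0.819, 1.23 and 0.956 in idKO atria 1, 2 and 3 and at most 0.670 in the other 5 atria. Lbh was also highest in these 3, at 81.8, 79.4 and 88.9 against at most 73.0. Kcnip2 and Fhl2 did not share this order. Kcnip2 was highest in idKO atrium 2 (37.1) and lowest in idKO atrium 3 (24.9). Fhl2 was lowest in idKO atria 2 and 3 (285.4 and 288.7) and highest in control atrium 2 (451.9). The part of ventricular RNA in these atrial Myl2 and Myl3 values was not tested. The sum of the 5 markers, 404 to 546 over the 8 atria, was 70.7% to 84.9% Fhl2, which atria express themselves, so it could not show a small ventricular share. With that limit, log2 Myl2 and log2 marker sum over the 8 atria gave Pearson r = -0.394 and Spearman rho = -0.524 (exact permutation, adjusted over 3 relations, p = 0.333 and 0.590, unadjusted 0.333 and 0.197).

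In ventricles the atrial isoforms varied together. Of the 8 ventricles, idKO replicate 1 had the most Myl7 and the most Myl4, and control replicate 2 and idKO replicate 4 had the least of both. Sln, an atrial marker that is low in ventricles, was likewise lowest in these, at 1.09 and 2.11, against 2.84 to 4.88 in the other 6. Its highest value was in control replicate 3. The other atrial chamber markers did not share this order. Stard10 was highest in control replicate 2 (35.6) and lowest in idKO replicate 1 (22.5). Dkk3 and Bmp10 were lowest in idKO replicate 4 (4.57 and 0.278) and highest in idKO replicates 2 and 3 (16.8 and 1.93). Kcnj3 was highest in idKO replicate 1 (116) and lowest in idKO replicate 3 (64.7). The part of atrial RNA in these values was not tested. The sum of the 5 atrial chamber markers (Sln, Bmp10, Dkk3, Stard10 and Kcnj3), 100.2 to 154 over the 8 ventricles, was 64.6% to 75.5% Kcnj3, which ventricles express themselves, and has the same limit. Against it, for Myl7 Pearson r was 0.418 and rho 0.333 (exact permutation, adjusted p = 0.333 and 0.642, unadjusted 0.321 and 0.428). For Myl4 r was 0.384 and rho 0.190 (exact permutation, adjusted p = 0.333 and 0.665, unadjusted 0.327 and 0.665). Without the 2 libraries farthest from the median marker sum, r was 0.025 for Myl7, -0.053 for Myl4 and -0.408 for atrial Myl2.

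**Figure D2:**
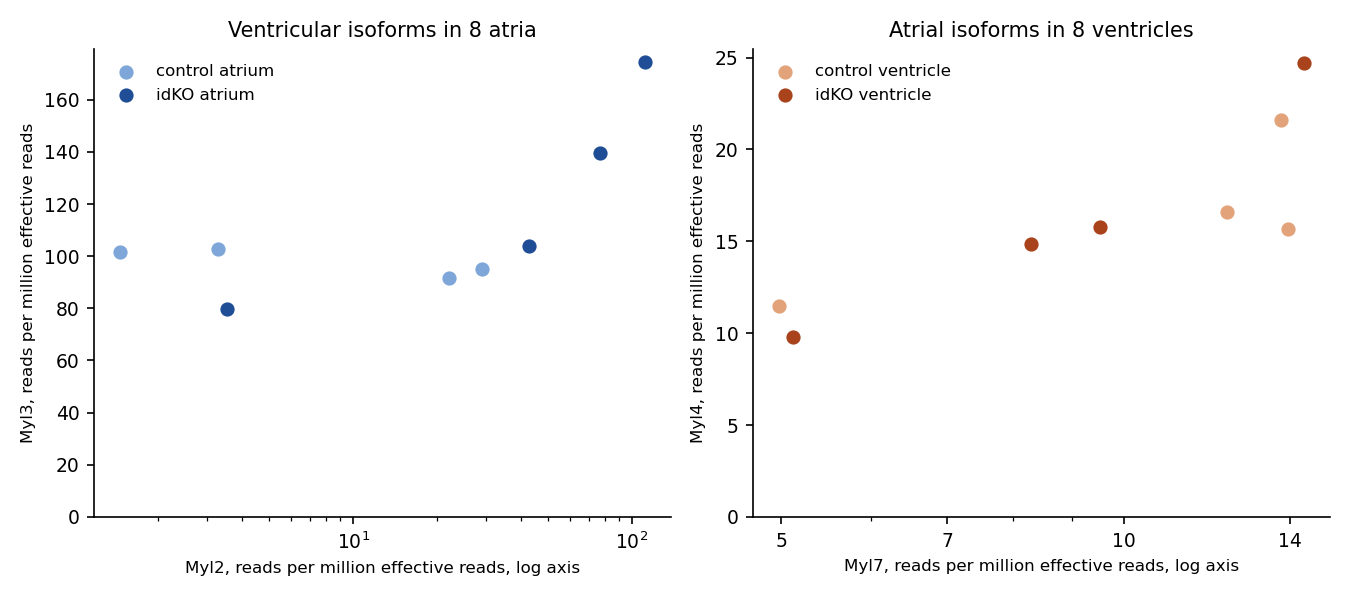
Left, Myl3 (linear axis) against Myl2 (log axis) in the 8 atria; right, Myl4 (linear axis) against Myl7 (log axis) in the 8 ventricles; each point is a library and the unit is reads per 1000000 of effective library size. The 3 atria with the most Myl2 had Myl3 at 104 to 175, and the 2 ventricles with the least Myl7 had the least Myl4, at 11.5 and 9.82.

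Levels of different genes were compared per kilobase, and the answer depended on the length used. Per kilobase of coding sequence, the regulatory isoforms together stood at 0.841 ± 0.039 of the essential isoforms in control atria and 0.842 ± 0.054 in idKO atria (SD, n = 4 each). Per kilobase of the union of annotated exons, which is 4637 bases for Myl4 and 590 for Myl7, the same ratio was 5.87 ± 0.26 and 5.80 ± 0.41. No statement on which atrial chain has more RNA is therefore made. In ventricles both lengths gave more regulatory than essential RNA in controls, at 1.40 ± 0.051 per coding kilobase and 1.20 ± 0.045 per exon kilobase. The idKO ventricles had a ratio of 1.17 ± 0.046 and 1.0 ± 0.038. Without length the ventricular Myl2 to Myl3 ratio, which no library scaling can alter, was 1.20, 1.10, 1.13 and 1.14 in the controls and 0.928, 0.962, 0.919 and 0.9998 in the idKO mice. The groups did not overlap. As a ratio over chosen genes it carries no p.

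Isoform use was close to complete in both genotypes. Per coding kilobase, Myl7 made 99.7% ± 0.30 of the regulatory pair in control atria and 98.7% ± 1.04 in idKO atria, and 0.126% ± 0.046 and 0.126% ± 0.058 in ventricles. Myl4 made 98.6% ± 0.17 and 98.2% ± 0.62 of the essential pair in atria and 0.233% ± 0.052 and 0.230% ± 0.094 in ventricles. Genotypes overlapped in all 4 of these shares. The share of all reads taken by the 4 light chains together was 1.11% ± 0.084 and 1.10% ± 0.047 for control and idKO atria and 1.01% ± 0.048 and 1.01% ± 0.025 for control and idKO ventricles.

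Of the kinases, Mylk4 fell in idKO ventricles, and Mylk3 did not pass. Mylk4 (chr13:32700834-32783954, minus strand) was 412, 331, 340.4 and 399 in control ventricles and 173, 139.9, 206 and 165 in idKO ventricles. Every idKO value was below every control value. Mylk4 fell by 1.12 ± 0.11 on the log2(value + 1) scale in idKO ventricles (SE, interval -1.35 to -0.89, limma adjusted p = 6.66e-05), to 46.2% of the control mean. All 17 alternatives called it, between -1.21 and -1.01. It was the 1 gene of the 6 that passed in ventricles, where 2.03% of 13144 genes passed, 0.533% higher and 1.5% lower in idKO mice. Between these ventricles the summed ventricular chamber markers were lower in idKO mice, as given above, and the summed macrophage markers, all 5 of 5 in the table, were higher (294.3 to 371 against 264 to 275). Their part in the result was not tested. Summed cardiomyocyte, endothelial, fibroblast and smooth muscle markers overlapped between genotypes. Myh6, at 37758 in control and 36470 in idKO ventricles, made the largest part of the cardiomyocyte sum. Of the 8 cardiomyocyte markers 7 were lower in idKO ventricles and 1 was higher. Ryr2 passed (limma), at 2342 ± 177 in controls and 1485 ± 179 in idKO mice, and the other 7 did not. The part of these markers in the Mylk4 result was not tested. In atria Mylk4 was 199.9, 226, 222 and 222 in controls and 181, 194, 176 and 223 in idKO mice. These ranges overlapped, and the difference was -0.17 ± 0.077 (interval -0.34 to -0.0044, limma adjusted p = 0.966).

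The genotype effect on Mylk4 differed between chambers when tested directly. The atrial effect exceeded the ventricular effect by 0.95 ± 0.14 on the log2 scale (SE, limma interaction, adjusted p = 0.00341), and all 18 alternatives called it, between 0.85 and 1.08. It was the 1 of the 6 genes called, against 0.296% of 14871 genes in all, 0.269% with the more positive effect in atrium and 0.0269% with the more positive effect in ventricle. Within animals, atrial Mylk4 was 48.5% to 68.3% of ventricular Mylk4 in the 4 controls and 85.6% to 138% in the 4 idKO mice, with no overlap. Ordered by level, control ventricles (371 ± 40.6) stood above control atria (218 ± 12), and idKO atria (194 ± 21.0) and idKO ventricles (171 ± 27.4) followed. Only the first step in that order separated groups whose libraries did not overlap. In controls the chamber difference was -0.76 ± 0.10 (limma adjusted p = 3.20e-06), but values as a share of all reads gave -0.20 (limma adjusted p = 0.067). In idKO mice it was 0.18 ± 0.10 (limma adjusted p = 0.133), and as a share of all reads 0.66 (limma adjusted p = 6.19e-06). Leaving out idKO replicate 3 also gave a call, at 0.32 (limma adjusted p = 0.0150).

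Mylk3 (chr8:85324303-85386345, minus strand) was 835, 787, 1034 and 893 in control ventricles and 1045, 1139, 1068 and 1136 in idKO ventricles. The lowest idKO value lay just above the highest control value, that of replicate 3. The difference was 0.31 ± 0.078 (SE, interval 0.14 to 0.48) and narrowly missed the threshold (limma adjusted p = 0.0612). Without control replicate 3 it was 0.39 (limma adjusted p = 0.0172), and 5 of 17 alternatives called it, with adjusted p from 0.00633 to 0.205 over the 17. In atria Mylk3 was 980.3, 991, 979 and 968 in controls and 882, 1099, 1039 and 1133 in idKO mice. Those ranges overlapped (difference 0.08 ± 0.077, limma adjusted p = 0.969). The group means ran from 1097 ± 48.0 in idKO ventricles through 1038 ± 111 in idKO atria and 979.6 ± 9.34 in control atria to 887 ± 107 in control ventricles, and each neighbouring pair overlapped. The chamber difference of Mylk3 was 0.15 ± 0.080 in controls (limma adjusted p = 0.121) and -0.08 ± 0.080 in idKO mice (limma adjusted p = 0.397). A block on the mouse uses that atrium and ventricle came from the same animal. With it as a fixed block the control difference passed at the same size (limma adjusted p = 0.0380), and as a random block it did not pass. Without control replicate 3 the control difference was 0.23 (limma adjusted p = 0.0326). As a share of all reads it was 0.72 in controls and 0.40 in idKO mice, and both passed (limma adjusted p = 4.20e-07 and 0.000329). The call in both genotypes and the sign in idKO mice thus turned with the scaling.

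Myl2, Mylk3 and Mylk4 were thus the 3 of 6 genes whose ventricular libraries did not overlap between genotypes, where 8.99% of 13144 genes did not overlap. The median log2 difference of the 6 in ventricles was -0.13, against -0.0076 over all genes. In atria no gene of the 6 passed (limma). DESeq2 and edgeR called none there either, and 1, Mylk4, had an unadjusted p under 0.05. The background by limma was 0.0207% of 14523 genes called, 0.0207% higher and 0% lower in idKO atria. None of the 6 separated the genotypes there without overlap, against 2.82% of all genes, and their median was 0.015 against -0.00036.

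**Figure D3:**
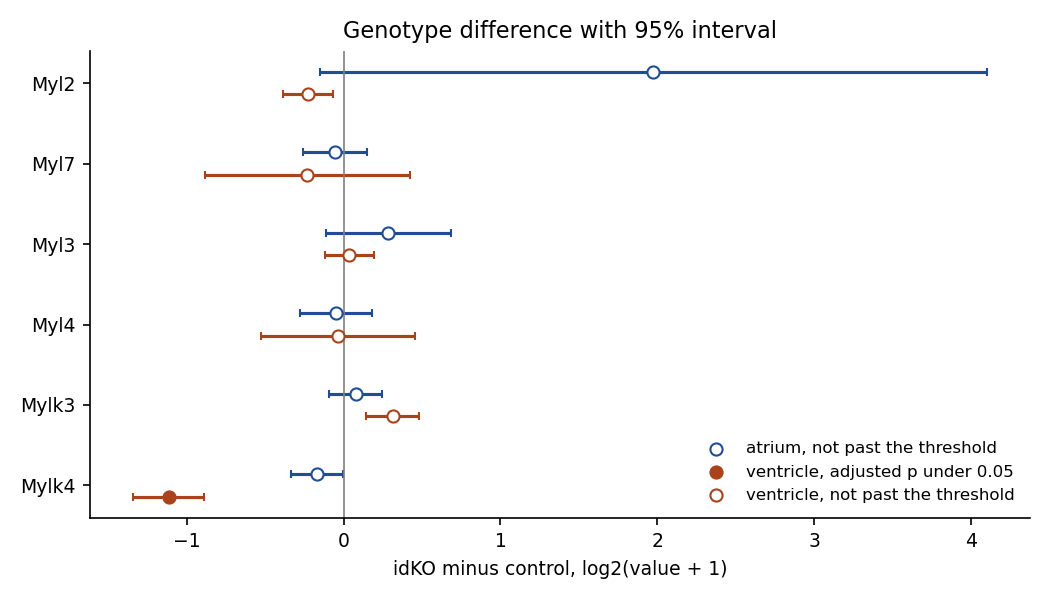
Difference between idKO and control mice on the log2(value + 1) scale for the 6 genes, in atria (blue) and ventricles (brown), with 95% intervals from limma; filled points passed an adjusted p of 0.05. Mylk4 in ventricles, at -1.12, is the only filled point, and the atrial Myl2 interval runs from -0.15 to 4.10.

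As a ratio within each library, free of scaling, Mylk4 was 0.493, 0.421, 0.329 and 0.446 of Mylk3 in control ventricles and 0.166, 0.123, 0.193 and 0.146 in idKO ones. In atria it was 0.204, 0.228, 0.226 and 0.229 in controls and 0.205, 0.176, 0.170 and 0.197 in idKO mice. Control ventricles stood above all other libraries, and idKO ventricles overlapped idKO atria but not control atria. Per coding kilobase the 2 kinases were nearest to each other in control ventricles, at 0.867 ± 0.14 Mylk4 per Mylk3, and farthest apart in idKO ventricles, at 0.322 ± 0.061. Per kilobase of all exons, of which Mylk4 has 7689 bases, those ratios were 0.235 and 0.0874.

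**Figure D4:**
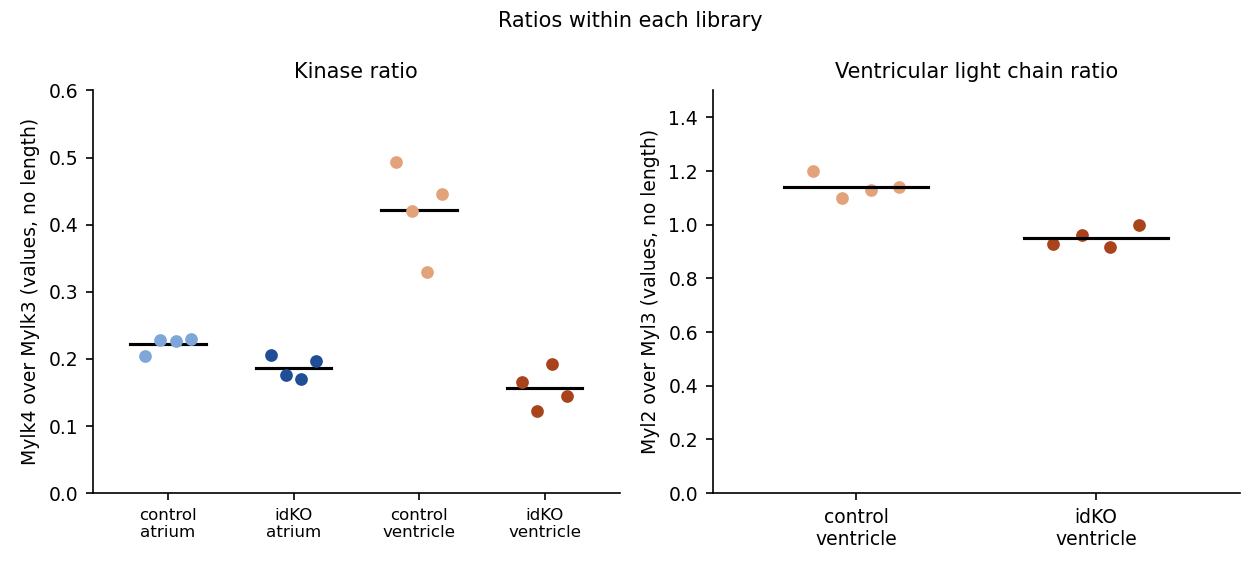
Left, Mylk4 over Mylk3 in each library of the 4 groups; right, Myl2 over Myl3 in each ventricular library; both axes are unitless ratios of values without division by length and start at 0, points are libraries and black lines group means. Control ventricles lay at 0.329 to 0.493 on the left and idKO ventricles at 0.123 to 0.193; on the right no idKO ventricle reached the lowest control at 1.10.

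Upstream windows of both kinases are shown because the study set out to delete Meis factors and Mylk4 fell in ventricles in which Mylk3 did not. Capitals mark the MEIS core, TGACAG or, on the other strand, CTGTCA. The Mylk3 window shown, 1 of 2 in the table, is chr8:85365325-85365574 and the Mylk4 window chr13:32783965-32784214, both on the minus strand of GRCm38.p6.
Mylk3: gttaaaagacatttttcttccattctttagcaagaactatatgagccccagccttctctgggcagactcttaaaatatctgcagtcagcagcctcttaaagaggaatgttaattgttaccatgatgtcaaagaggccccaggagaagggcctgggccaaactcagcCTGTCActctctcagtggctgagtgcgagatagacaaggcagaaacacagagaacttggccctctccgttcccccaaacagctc
Mylk4: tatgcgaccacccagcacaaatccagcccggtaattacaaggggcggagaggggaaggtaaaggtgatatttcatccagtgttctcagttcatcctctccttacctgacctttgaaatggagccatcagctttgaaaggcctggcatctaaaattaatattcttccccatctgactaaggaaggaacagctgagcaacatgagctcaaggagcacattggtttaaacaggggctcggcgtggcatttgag
This Mylk3 window, at a GENCODE start, holds the MEIS core 84 to 79 bases before its start and none of the other 3 motifs. The other Mylk3 window, chr8:85381042-85381291, lies at a start 7 bases from another GENCODE start, and it holds no MEIS core and 2 matches of the GATA letters, at 100 to 95 and 50 to 45 bases before its start. The Mylk4 window holds none of the 4. Its start lies 10 bases from the nearest GENCODE start, that of Mylk4-202, which is not the transcript whose coding sequence was used. As 15.9% of all windows hold TGACAG by their letters, 1 match in 1 window is no finding, and no match says nothing of sites elsewhere in these genes.

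Genes whose pattern was most like each member were ranked by Pearson r of log2(value + 1) over the 16 libraries, a description that rests on the 4 group means and on shared libraries. For Mylk4 they were Entpd5, an endoplasmic reticulum nucleotidase (0.940), Efnb3, a membrane-bound ephrin (0.904), and Clasp1, which stabilises microtubule ends (0.891). Efnb3 means were 104 in control and 11 in idKO ventricles and 12.7 and 10.1 in control and idKO atria, and those of Entpd5 were 281, 129, 184 and 158 in the same order. Myl7 and Myl4 shared Fgf12, a modulator of sodium channels, and Sln, the atrial inhibitor of the calcium pump of the sarcoplasmic reticulum (0.999 each). Myl3 was nearest to Ivns1abp (0.999), Gsto1 and Adk (0.997 each), Myl2 to Ramp3 (0.976), Lbh (0.9749) and Pla1a (0.9745), and Mylk3 to Prpf3 (0.881), Tsc22d1 (0.781) and Tor3a (0.780).

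With the 4 group means removed, the likeness of Myl7 to Sln (0.893), Fgf12 (0.886) and Plekha7 (0.868) was still high over the 16 libraries, and that of Myl4 to Fgf12 was 0.881. Among the 6 genes, Myl7 and Myl4 had r = 0.887 in these deviations and Myl2 and Myl3 had 0.590. Mylk3 and Mylk4 had 0.026. On the log2 scale Myl7 ranged more widely in ventricles (4.98 to 14.4) than in atria (4526 to 5589). The r values of Myl7 thus weigh its low ventricular levels most, where Fgf12 means were 0.783 in controls and 0.606 in idKO mice. Likeness within the atria alone was not tested. In these deviations the genes nearest to the kinases were others, Ccne1 (0.880), Tmem8b and Trappc11 for Mylk4 and Zfp772 (0.839), Pacs1 and Ttc12 for Mylk3. Ccne1 (group means 1.35 to 2.84) and Zfp772 (2.06 to 3.58) were low. The r values named are the highest of many, and how high unrelated genes would reach was not tested.

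The rest of the pathway was read from 6 lists with 43 genes. They hold the other light chains, other light chain kinases, the light chain phosphatase with its inhibitors, calmodulin, the heavy chains, and myosin-binding and folding proteins. In idKO ventricles none of the 38 tested genes passed (limma), where 2.03% of 13144 genes did. Of the 38, 6 had an unadjusted p under 0.05, DESeq2 called 1 (Ppp1r12b) and edgeR none. Their median log2 difference was -0.010. In idKO atria none of 39 passed, against 0.0207% of 14523 genes, and 3 had an unadjusted p under 0.05. DESeq2 and edgeR called none there. For the difference between chambers in genotype effect none of 40 passed, against 0.296% of 14871 genes. Of the 40, 4 had an unadjusted p under 0.05, and DESeq2 and edgeR called none. With shares this low over all genes, the absence of a call in these lists says little. The shares over all genes are from limma, and none stands beside the unadjusted, DESeq2 and edgeR counts.

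Ppp1r12b encodes MYPT2, the subunit that targets the phosphatase to myosin in heart muscle and so opposes the kinases. It was 399.6 ± 23.1 (SD, n = 4) in control and 319 ± 40.3 in idKO ventricles, which is a log2 difference of -0.33 ± 0.083 (SE, limma adjusted p = 0.0612), and the highest idKO library (370.4) just exceeded the lowest control (369). Calm3, a calmodulin gene, was 190.3 ± 5.95 and 173 ± 4.07 (limma adjusted p = 0.245). Myh7, the slow heavy chain, ranged widely within both groups, at 335 to 2186 in control and 682 to 2832 in idKO ventricles (limma adjusted p = 0.270). The other kinases with the smallest p in ventricles, Dapk2, Rock1, Cdc42bpb and Mylk, all missed the threshold. Rock1 was 99.5 ± 11 and 104 ± 10.1.

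Between control chambers 27 of the 40 tested pathway genes passed, 12 higher in atrium and 15 higher in ventricle, with a median of -0.13 against 0.017 over all genes. Of all 14871 genes 56.9% passed, 28.2% higher in atrium and 28.7% higher in ventricle, so the count says little of these lists as a whole. Of 6 other light chains 4 were higher in atrium and 1 was lower. Myl9, a smooth muscle regulatory chain, was 420.5 ± 127 against 25.9 ± 3.74, and Myl1, the fast skeletal essential chain, was 225 ± 104 against 16.4 ± 8.42. Summed smooth muscle markers were 440 to 530 in control atria and 331 to 384 in control ventricles. The 2 largest genes in that sum, Acta2 (188 against 174) and Smtn (147 against 143), did not pass. The other 4 of the 6 were higher in atrium (limma), and the median log2 difference of the 6 was 1.19. Cnn1 was 23.3 against 1.80, Tagln 65.8 against 18.3, Myh11 53.5 against 23.0 and Lmod1 7.39 against 2.67. Of 7 skeletal muscle markers 4 were in the table, and they summed to at most 19.1 in control atria and 3.30 in control ventricles. Of the 9 genes in the phosphatase list 7 were higher in ventricle, against the same 28.7% of all genes. The 7 include Ppp1r14b and Ppp1r14c, which encode inhibitors of the phosphatase, so they are not a count of its subunits. Ppp1r12a was higher in atrium. Ppp1r12b was 293.4 ± 17.1 in control atria and Ppp1cb, the catalytic subunit for myosin, was 404 ± 9.76 against 529 ± 24.0. Of 8 other kinases 2, Dapk2 and Mylk2, were higher in atrium and 6 did not pass.

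Among binding and folding proteins Mybphl was 829 ± 63.5 in control atria and 1.59 ± 0.947 in control ventricles, the largest step of these lists. Mybpc3, the cardiac myosin-binding protein C, was 1943 ± 210 and 5596 ± 342, and Smyd1 and Smyd2, which take part in myosin assembly, were also higher in ventricle. Of the heavy chains Myh7b was 0.743 ± 0.451 in control atria and 134 ± 10.5 in control ventricles. Myh6, the main heavy chain of both chambers, was 34098 ± 2887 and 37758 ± 2151. In idKO mice 28 of 40 passed between chambers, 13 higher and 15 lower in atrium, where 53.8% of all genes passed, 26.8% higher and 27.1% lower. On the recovered reads DESeq2 and edgeR each called 26 of the 40 between control chambers, and 29 and 26 between idKO chambers. The shares over all genes given here are from limma, and none stands beside these counts. Values as a share of all reads raise the median of all genes to 0.51 in the control and 0.44 in the idKO comparison, and the lists were not counted on that scale.

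**Figure D5:**
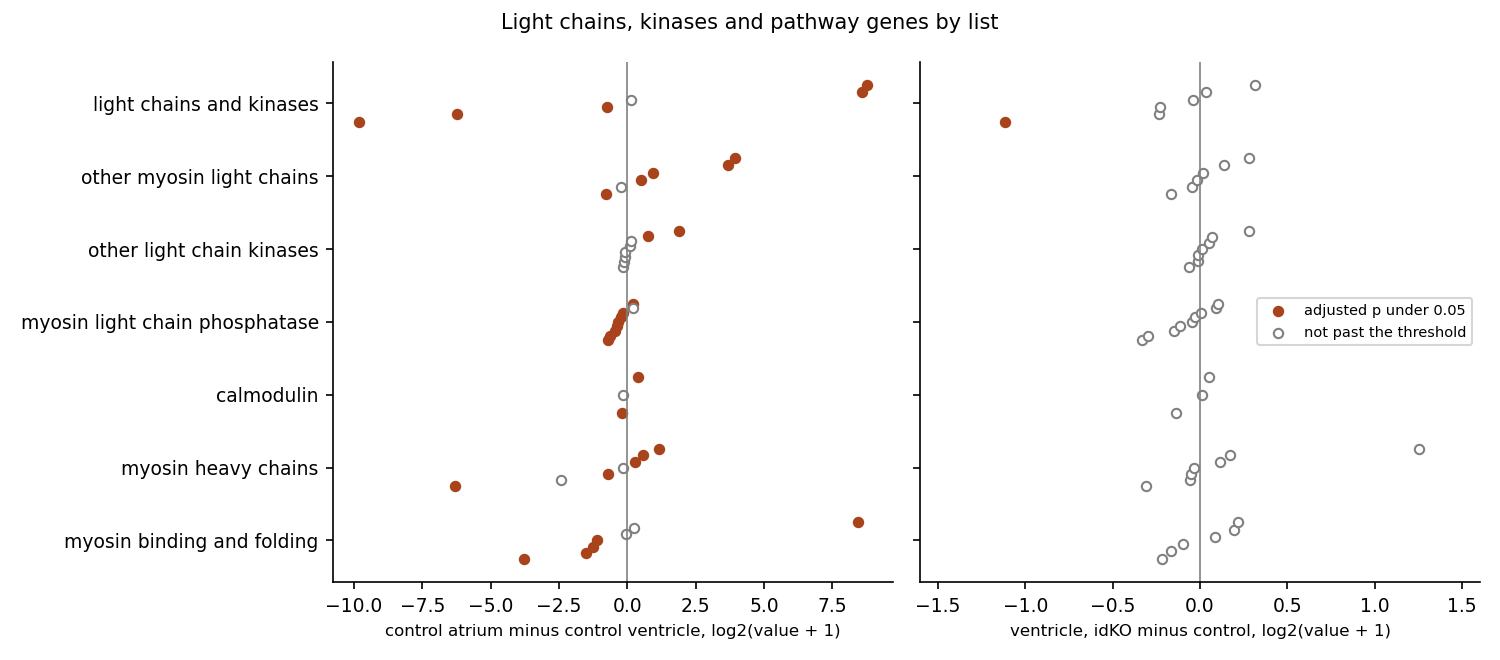
Differences on the log2(value + 1) scale for the 6 genes (top row) and the tested genes of the 6 pathway lists, between control chambers (left) and between genotypes in ventricles (right); filled points passed an adjusted p of 0.05, open points did not. On the right only Mylk4 is filled, at -1.12, and the open point farthest to the right is Myh7.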

How the data were processed

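Polyadenylated RNA was measured by RNA sequencing (NEBNext Ultra libraries from 20 ng of RNA, single reads of 60 bases, per the labels' protocols). Per the submitters' processing notes the authors trimmed reads with cutadapt and counted them by RSEM 1.3.1 on GRCm38. Not given in the sources used here are the scaling tool, any filter on low genes and the strand setting of the counting. The deposited values are a normalised signal per gene and library. Within 0.01 of a read, 100% of them were whole reads plus 0.5, divided by 1 effective library size per library and scaled to 1000000, so reads could be recovered (13117739 to 21771518 per library).

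The main test, two-sided, was limma 3.58.1 (R 4.3.3) with a trended prior for log2(value + 1) and Benjamini-Hochberg adjustment over all genes tested and a threshold of 0.05. A fold change on this scale understates the change of low genes. Genes entered a fit if 4 or more of its libraries reached 1 CPM, taken over the summed values. Genotypes were compared over the 8 libraries of a chamber. Chamber differences and the interaction used all 16. Atrium and ventricle of an animal are paired by the mouse number in the titles, and their deviations from the group means correlated by 0.188 to 0.325 over 14871 genes, for 8 of 8 mice best with the same animal. The block on the mouse was an alternative, as were DESeq2 1.42.0 and edgeR 4.0.16 on the recovered reads, other pseudocounts, filters, scalings and lengths, and leaving out each replicate. Shares of all reads and coding lengths were added after seeing the data. No 2 replicates agreed within sampling noise (mean chi-square per gene 7.77 to 16.1). The main limma test was run on simulated data for each comparison, with control ventricle means as the base in every library and no pairing by mouse. The blocked fits, DESeq2, edgeR and the other scalings were not simulated.

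The 6 genes, the lists and the markers were chosen with earlier results of these data known. All 6 are described, with up to 4 genes of smallest p from each list, and for likeness the 3 genes of highest Pearson r by each of the 2 measures. Names came from the table, and 202 of 206 unnamed genes were named from GENCODE. Upstream windows are from RefSeq (GRCm38.p6), and coding sequences and gene positions from GENCODE M21.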

Additional observations from a re-analysis of the deposited data

Results flagged for a closer look

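Mylk4 was singled out because its genotype effect differed between chambers by the interaction test, with an atrial effect 0.95 log2 units above the ventricular one (limma adjusted p = 0.00341). The idKO value was below the control mean in 4 of 4 ventricles, and the atrial ranges overlapped. None of the 24 groups of 4 values of the 6 genes held a library far enough from the other 3 to pass Dixon's criterion, which chance meets in about 1 in 20 groups.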

How the results depend on the processing

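The number of the 6 genes called was within 1.5 times the main count in 83 of 88 alternatives. The exceptions were in ventricles, where 1 gene was called. That count was 2 with values rescaled by TMM factors, as shares of all reads and in a fit of all 16 libraries, 3 with DESeq2, and 1 to 2 when a replicate was left out, with Mylk3 as the added gene (without control replicate 3) and Myl2 further added by DESeq2. Of 528 refits of single genes, 505 kept sign and side of the threshold, 11 gained a call, 1 lost it and 11 changed sign. The mouse as a fixed replicate block changed the call of Mylk3 between control chambers (0.15, limma adjusted p = 0.0380) and no other. As a random block it changed no call of the 6 genes. Mylk3 between idKO chambers changed sign and passed as a share of all reads (0.40, limma adjusted p = 0.000329). Other changes of sign were in uncalled differences near 0. Myl4 in ventricles was 0.058 as a share of all reads, 0.016 by DESeq2 and 0.021 by edgeR, and -0.25 to 0.16 when a replicate was left out. With a replicate left out, Myl4 ran from -0.10 to 0.0017 in atria and from -0.26 to 0.23 in the interaction, and Myl7 in the interaction from -0.092 to 0.54. The correlation of ventricular Myl4 with atrial markers was -0.053 without 2 libraries. The cause was not tested. As shares of all reads, calls over all genes split 9879 higher and 1388 lower in atrium in controls (4201 and 4267 as deposited), 9254 and 1546 in idKO mice (3983 and 4024), 154 higher and 108 lower in idKO ventricles (70 and 197), and 17 and 5 in the interaction (40 and 4). The median of all genes then moved to 0.51, 0.44, 0.087 and -0.064. Over all genes, ventricles had 267 calls, 537 with DESeq2, 148 unfiltered, 89 without the trend in the prior and 132 to 359 with a replicate left out (158, 132 and 157 without control 3, control 4 and idKO 2). Atria had 3, and 12 with DESeq2. The interaction had 44, 19 to 24 without any one of control replicates 2, 3 and 4 and idKO replicates 2 and 3, 22 as shares of all reads, 24 without the trend, 86 with DESeq2, and 102 and 71 with a fixed and a random replicate block. Depth limits the isoforms of the other chamber most, with as few as 25 reads of Myl2 in an atrium.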
